A study of Mus musculus with 4 samples.

Results

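The comparison of the blastocyst with the morula was made in control wells only, that is in wells with material from mouse embryos injected with a control morpholino. A morpholino is a synthetic oligonucleotide that pairs with an RNA and blocks its translation or splicing. The other wells of the same plates held material from embryos injected with a morpholino against NKX1-2, a homeobox transcription factor. These wells enter only where they are named. A control well entered where at least 2000 genes were detected in it, and 182 of the 192 control wells did so, among 384 wells in all. There were 96 morula wells (48 and 48 on replicate plates 1 and 2) and 86 blastocyst wells (43 and 43). Counts were summed over the wells of a plate, so that each stage had n = 2 plates and 4 sums were compared. Of 55453 rows in the files, 25965 were kept. The others hold ribosomal protein, mitochondrial and numbered Gm genes, genes with a pseudogene row of their own, the pseudogene rows, and a stretch of 344 rows without any count in the morula plates. The labels name an embryo source, polyA RNA and single cells, but give no strain, no age beyond the stage, no number of cells per well and no embryo of origin for a well. The spread behind each adjusted p-value is therefore that between plates, which may be technical. Because each plate held 1 stage, stage and plate cannot be told apart.

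The morula is a compact ball of blastomeres that have become polarised on the outside. During the passage to the blastocyst, outer cells become trophectoderm, a transporting epithelium that pumps fluid into the cavity and later forms placenta. Inner cells become the inner cell mass, which is split into epiblast, the source of the body, and primitive endoderm, the source of the yolk sac. Outer cells keep the coactivator YAP in the nucleus with TEAD4, which switches on Cdx2 and Gata3, while inner cells keep Pou5f1, Nanog and Sox2 and make FGF4, which drives primitive endoderm through ERK.

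The kept control wells of the morula plates held 2157307 and 2081917 counts, those of the blastocyst plates 1084312 and 1461141, with medians per well of 44201, 41251, 22391 and 31360. Levels are given as CPM, the counts of a gene scaled to a common total of counts on tested genes per plate (TMM), always replicate 1 before replicate 2. The depth sets a floor: 3 counts over a stage correspond to 1.04 CPM in the morula and 2.05 CPM in the blastocyst. Over the 7982 genes tested, log2 CPM correlated across genes at 0.977 between the morula plates, at 0.944 between the blastocyst plates and at 0.784 to 0.809 between stages. Ribosomal protein rows, which were left out, held 12.6% and 12% of the counts in the morula and 22.5% and 23.4% in the blastocyst. Levels are relative to the counts on tested genes, not to all counts. Kept rows held 70.3% and 70.8% of all counts on the morula plates and 57.1% and 57.5% on the blastocyst plates. Against all counts, blastocyst levels would thus be lower relative to the morula, which matters for small rises. No spike-in is named in the labels, so that less RNA per cell cannot be told apart from a lower share of it, nor fewer cells of a type from less RNA per cell. Nkx1-2 had 0 counts in the control sums of all 4 plates.

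Of the 7982 genes, 3105 (38.9%) differed between stages at an adjusted p under 0.05 by edgeR's quasi-likelihood test with Benjamini-Hochberg adjustment. In the blastocyst, 1522 (19.1%) were higher and 1583 (19.8%) lower, the shares against which the counts of each gene list below are to be read. The median log2 fold change over all genes tested was 0.001, and the median size among the genes that passed was 1.363. Changes above 1 on the log2 scale were found in 1103 genes that rose and 1120 that fell, and changes above 3 in 157 and 131. The smallest size that passed was 0.397. In 3103 of the 3105 genes both blastocyst plates lay on the same side of both morula plates, which also held for 5631 (70.5%) of all genes tested. Every gene that is said below to have risen or fallen was separated by stage in this way. Without morula replicate 1, 857 genes were higher and 1018 lower, and without morula replicate 2, 800 and 987.

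**Figure D1:**
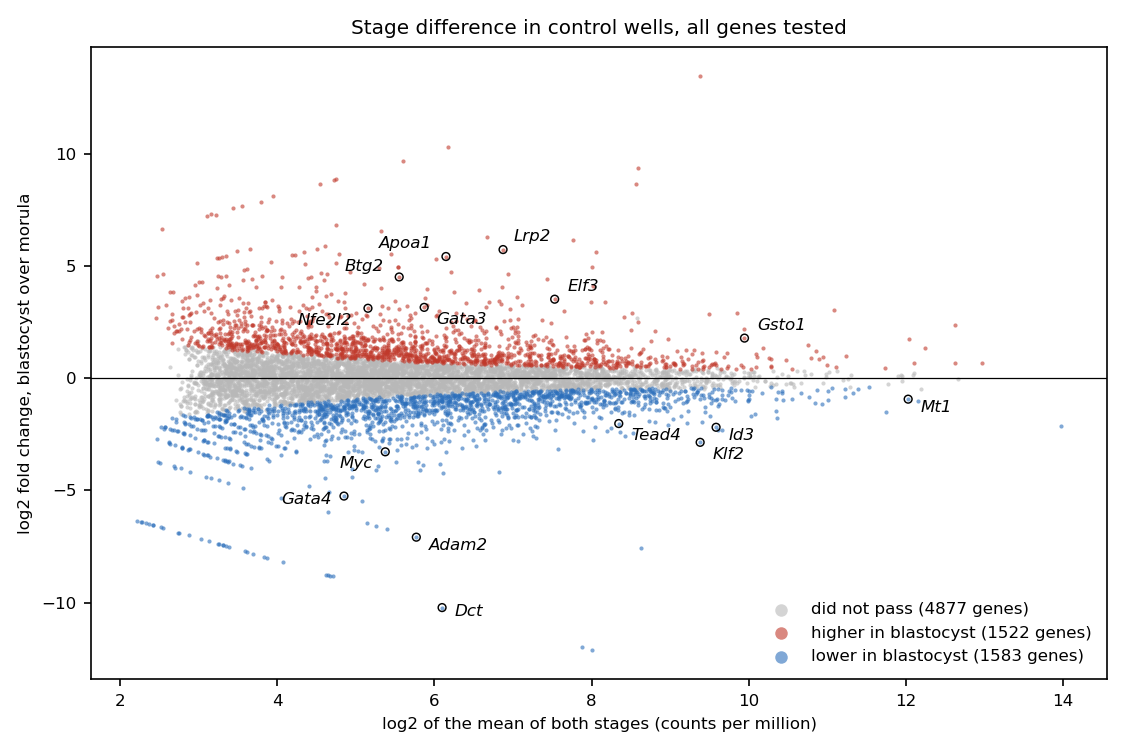
Log2 fold change from morula to blastocyst (vertical axis) against the log2 of the mean level of both stages in CPM (horizontal axis), 1 point per gene tested. Red points (1522) were higher and blue points (1583) lower in the blastocyst, grey points (4877) did not pass, and circled genes are named. The slanted rows of blue points at low levels are genes with few or no counts in the blastocyst, whose fitted fold change depends on the prior count.

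Some sequence is shared between genes, and the counting of such genes may have differed between stages, which was not tested. A gene was therefore described as certain only where under 10% of the 31-base stretches of its transcripts occur in another gene and under 10% of its exon bases overlap another gene. Among 225 genes that share 50% or more of their stretches, 15.1% changed by more than 3 on the log2 scale, against 2.97% of the 6163 genes under the limit. Below both limits lay 6077 genes, of which 1022 (16.8%) were higher and 1259 (20.7%) lower. Krt18, Pou5f1, Atp1b1, Xist and the noncoding RNA Sp3os exceed a limit, and their values are uncertain. Krt8 and Nanog have pseudogene rows and were left out.

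The largest rises among well-detected genes under the limit on shared stretches included an endocytic receptor, an apolipoprotein and a collagen-modifying enzyme. Lrp2 encodes megalin, the endocytic receptor for lipoproteins and vitamin carriers (chromosome 2, 69424340 to 69586065, GRCm38). It stood at 1.34 and 7.13 CPM in the morula and at 262 and 199 CPM in the blastocyst (log2 fold change 5.75, SE 0.39). Apoa1, the main protein of high-density lipoprotein, went from 3.35 and 2.85 to 122 and 155 CPM (5.44, SE 0.38). Both genes were below 10 CPM in each morula plate and above 100 CPM in each blastocyst plate. Plod2, a collagen lysyl hydroxylase, had 2 counts in the morula and 69 in the blastocyst, a ratio of 68.2 (95% exact interval 18.2 to 574, counting error only). Pgap1, which remodels GPI anchors in the endoplasmic reticulum, also had 2 morula counts, and its ratio was 52.4 (13.8 to 444). Rab17, a GTPase of epithelial vesicle traffic, had 3, with a ratio of 38.2 (12.4 to 191). The transcription factor Klf6 rose from 3.35 and 1.43 to 74.8 and 77.7 CPM, the aldo-keto reductase Akr1b8 from 7.37 and 11.4 to 234 and 237 CPM. The antiproliferative gene Btg2 rose from 2.68 and 4.99 to 89.4 and 90.7 CPM. Glrx (4.68), a glutaredoxin, Guca1a (4.68), a guanylate cyclase activator, Elovl7 (4.50), a fatty acid elongase, and the homeobox gene Nkx2-9 (4.39) completed the 12 genes with the largest rises. The blastocyst plates differed for 2 of them, with Glrx at 21.1 and 69.5 CPM and Elovl7 at 9.75 and 54.2 CPM.

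Transcripts of several genes better known from other tissues were present in morula wells and nearly absent from blastocyst wells. Dct, dopachrome tautomerase of the melanin pathway (chromosome 14, 118012790 to 118052244), had 175 and 99.1 CPM in the morula and 0 counts in both blastocyst plates. Taking the floor of 3 counts over the blastocyst plates, it was at least 67.5-fold lower. Lgr5, an R-spondin receptor, had 59.7 and 44.9 CPM and then 0 counts, at least 25.6-fold lower, and Cdh3, P-cadherin, had 62.3 and 39.9 CPM and then 0 counts, at least 25.1-fold lower. Adam2, a sperm surface protein, had 112 and 105 CPM in the morula and 1 count in the blastocyst, a ratio of 0.0063 (95% exact interval 0.000159 to 0.0353). Nrxn3, a synaptic adhesion protein, had 77.8 and 62.7 CPM and then 1 count (ratio 0.00969, interval 0.000244 to 0.0546). Foxa1, a pioneer transcription factor of endoderm, had 62.3 and 69.8 CPM in the morula and 2 counts in the blastocyst (ratio 0.0207, interval 0.00249 to 0.0758). The phosphatase subunit Ppp2r2b, the adhesion protein Nfasc, the Nogo receptor Rtn4r and the glutamate receptor subunit Grin2d also had only 1 or 2 counts in the blastocyst. Sp3os, an RNA from the Sp3 locus, had 830 and 751 CPM in the morula and 4.88 and 3.53 CPM in the blastocyst, but 12.2% of its exon bases overlap another gene.

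Trophectoderm transcription factors did not move as a group. Of 20 on the list 10 had enough counts to be tested, and 4 rose and 4 fell, with a median log2 fold change of 0.25. This median turned negative in 6 of 20 alternatives, down to -0.56. Elf3, an epithelial ETS factor, rose from 26.1 and 32.8 to 304 and 377 CPM (3.53, SE 0.24, adjusted p = 1.25e-08). Gata3 rose from 14.7 and 8.55 to 89.4 and 121 CPM (3.17, SE 0.34, adjusted p = 2.66e-06). Cdx2, the factor that secures trophectoderm identity, rose from 2.01 and 6.41 to 21.1 and 15.3 CPM (2.08, SE 0.56, adjusted p = 0.00741), and this call was lost with DESeq2 and without morula replicate 1. Klf6, described above, was the fourth that rose, and the other 4 that passed fell. Tead4, the partner of YAP upstream of Cdx2, fell from 547 and 496 to 135 and 124 CPM (-2.02, SE 0.19), and Hand1, a factor of trophoblast giant cells, from 597 and 507 to 153 and 64.8 CPM (-2.38, SE 0.28). Tfap2c, which encodes AP-2 gamma, went from 344 and 311 to 133 and 137 CPM (-1.28, SE 0.19), and Klf5 from 824 and 956 to 530 and 446 CPM (-0.87, SE 0.17). Tfap2a (0.60) and Grhl2 (-0.10) did not pass. Gata2 and Eomes were too low to test: Gata2 had 0 counts in the morula plates and 0 and 1.18 CPM in the blastocyst, and Eomes had 2.68, 2.85, 1.63 and 5.89 CPM in the 4 plates. The summed level of the list was 2444 and 2391 CPM in the morula and 1524 and 1473 CPM in the blastocyst.

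Genes for the surface and the epithelial products of trophectoderm rose. Of 16 members tested, 11 rose and 0 fell by edgeR, of which 9 of 14 under both sequence limits, and the median was 1.78. Ptges, a prostaglandin E synthase, rose from 22.1 and 17.8 to 215 and 151 CPM (3.17, SE 0.28). Anxa2 and S100a10 encode partners that bind membranes at the cell cortex. Anxa2 rose from 57.6 and 29.9 to 203 and 211 CPM (2.23) and S100a10 from 45.6 and 34.2 to 156 and 106 CPM (1.70). The glucose transporter gene Slc2a3 rose from 42.2 and 39.2 to 117 and 150 CPM (1.72). Krt18, a keratin of simple epithelia, was at 40.2 and 27.1 and then at 205 and 200 CPM (2.58), with 11.4% of its stretches shared. Lgals3 (-0.50), Tspan8 (1.04), Sct (-0.18), Fgfr2 (-0.17) and Cited2 (-0.19) did not pass.

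The endocytic receptors and apolipoproteins had 11 of 21 members higher and 3 lower, with a median of 0.76. Beside Lrp2 and Apoa1, Dab2, the adaptor of megalin, rose from 27.5 and 24.2 to 231 and 216 CPM (3.10, SE 0.24), and Cltc, the clathrin heavy chain, from 22.1 and 24.9 to 150 and 146 CPM (2.65, SE 0.26). The RNAs for the receptor, its adaptor and the coat protein were thus each higher in both blastocyst plates. Fcgrt, the neonatal Fc receptor, fell from 83.8 and 46.3 to 39.0 and 13 CPM (-1.41), and Amn, the partner of cubilin, from 39.5 and 24.2 to 17.9 and 3.53 CPM (-1.70). Both of these calls were lost with DESeq2, without morula replicate 1 and without blastocyst replicate 2. Scarb1 (-0.01), a lipoprotein receptor gene, did not pass.

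**Figure D2:**
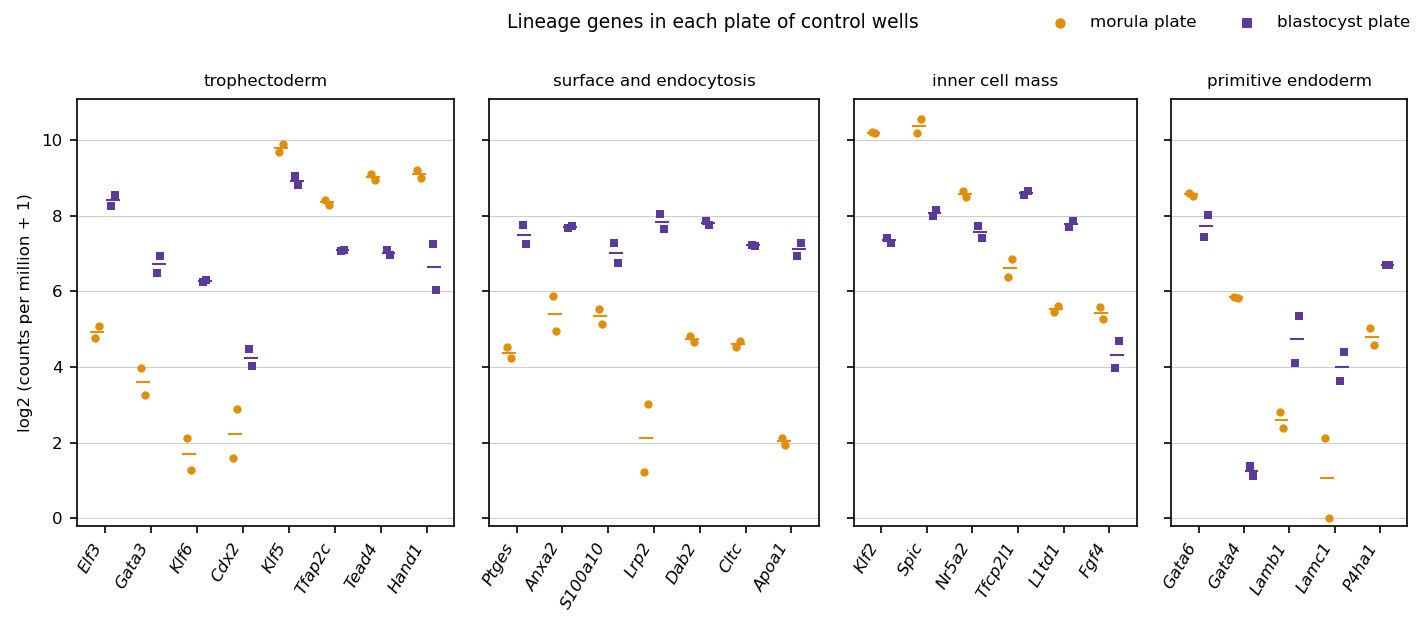
Level of lineage genes in each plate of control wells, as log2 of CPM plus 1 (vertical axis). Orange circles are the 2 morula plates, purple squares the 2 blastocyst plates, and short lines the means of the plotted values. For every gene shown the plates of the stages do not overlap. Elf3, Gata3, Klf6 and Cdx2 lie higher in the blastocyst, while Klf5, Tfap2c, Tead4 and Hand1 lie lower.

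Pluripotency and epiblast genes were mostly lower. Of 19 members tested, 12 fell and 2 rose, and of the 12 under both sequence limits 8 fell and 2 rose. The median was -0.76, against 0.001 over all genes. Klf2, a naive pluripotency factor (chromosome 8, 72319033 to 72321656), fell from 1181 and 1162 to 171 and 154 CPM (-2.85, SE 0.17, adjusted p = 3.93e-09). Spic, an ETS-family factor, fell from 1173 and 1515 to 255 and 281 CPM (-2.32, SE 0.18), and Nr5a2, an orphan nuclear receptor of early embryos, from 400 and 359 to 211 and 168 CPM (-1.01, SE 0.19). Trim28, a corepressor that silences retroelements, fell from 1107 and 1038 to 280 and 284 CPM (-1.93, SE 0.16). The exceptions were Tfcp2l1, a naive pluripotency factor, with 81.8 and 114 and then 374 and 405 CPM (1.99, SE 0.21), and L1td1, an RNA-binding protein of pluripotent cells, with 42.9 and 47.8 and then 208 and 231 CPM (2.28, SE 0.23). Fgf4, the ligand made by inner cells, fell from 46.9 and 37.8 to 14.6 and 24.7 CPM (-1.06, SE 0.37, adjusted p = 0.0306), a call that 7 of 20 alternatives lost, with each morula plate and with blastocyst replicate 1 left out among them. Pou5f1 had 145 and 215 and then 87.8 and 112 CPM (-0.83), with 14.2% of its stretches shared. Sox2, at 2.01, 8.55, 3.25 and 18.8 CPM in the 4 plates, was too low to test. Dppa2 (-0.12), Dppa5a (0.26), Gdf3 (0.60), Sall4 (-0.29) and Etv5 (0.58) did not pass.

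The list of primitive endoderm and basement membrane genes had members that rose and members that fell. It had 7 of 15 members higher and 3 lower, with a median of 1.08 that was negative in 2 of 20 alternatives, down to -0.36. Gata6, a factor of primitive endoderm that is first expressed broadly, fell from 391 and 367 to 172 and 261 CPM (-0.79, SE 0.20). Gata4, which follows Gata6, had 57.0 and 55.6 CPM in the morula and 2 counts in the blastocyst (ratio 0.0243, 95% exact interval 0.00291 to 0.0890). Cited1, a transcriptional coactivator, fell from 1049 and 1142 to 473 and 459 CPM (-1.23, SE 0.16). Of the laminin chain genes, Lamb1 rose from 6.03 and 4.28 to 16.3 and 40.0 CPM (2.47, SE 0.52), and Lamc1 from 3.35 and 0 to 11.4 and 20.02 CPM (3.15, SE 0.72). Lamb1 lost its call without blastocyst replicate 2, and Lamc1 with DESeq2 and without morula replicate 2. P4ha1, a prolyl hydroxylase that matures collagen, rose from 31.5 and 22.8 to 102 and 102 CPM (1.91, SE 0.28). Sox17 and Pdgfra, which mark committed primitive endoderm, were too low to test, with Sox17 at 0, 0, 3.25 and 0 CPM and Pdgfra at 3.35, 3.56, 8.13 and 5.89 CPM.

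Genes of the epithelial seal and of the cavity showed no common direction. Among 25 junction and polarity genes 6 rose and 3 fell (median 0.40), and among 15 genes for water, ion and pH transport 6 rose and 4 fell (median 0.17, between -0.55 and 0.56 over the alternatives). Epcam, an epithelial adhesion molecule, rose from 103 and 96.9 to 307 and 520 CPM (2.06, SE 0.23). Dsp, desmoplakin of the desmosome, rose from 3.35 and 1.43 to 24.4 and 31.8 CPM (3.50, SE 0.54), and Ctnna1, alpha-catenin, from 127 and 97.6 to 255 and 225 CPM (1.09, SE 0.21). Cldn4, a tight junction claudin, fell from 180 and 170 to 43.9 and 34.1 CPM (-2.18, SE 0.25), and the apical polarity gene Crb3 from 318 and 379 to 224 and 147 CPM (-0.92, SE 0.21). Cdh1, E-cadherin, stood at 93.2 and 57.7 and at 133 and 108 CPM and did not pass (0.67, adjusted p = 0.0537). It passed as higher in some alternatives, such as RLE size factors, limma voom and a replicate block, but not with DESeq2. Its log2 fold change lay between 0.34 and 1.03 over the 20 alternatives. In the main test, Tjp1 (0.40), Cgn (0.22), Ocln (-0.51) and Cldn6 (0.75) did not pass either.

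The water channel gene Aqp3 rose from 125 and 88.4 to 245 and 186 CPM (1.01, SE 0.23), although not without morula replicate 2 or in wells with Y-linked counts and no Xist. Slc9a3r1, a scaffold for apical transporters, rose from 2.68 and 2.85 to 17.9 and 27.1 CPM (3.0, SE 0.53). Atp1b1, the beta subunit of the sodium pump, was at 10.7 and 19.2 and then at 73.1 and 71.8 CPM (2.27), with 16.9% of its stretches shared. Other channel genes fell, Aqp11 from 39.5 and 39.9 to 11.4 and 3.53 CPM (-2.50, SE 0.48) and the potassium channel gene Kcnk5 from 292 and 227 to 56.9 and 33.0 CPM (-2.57, SE 0.27).

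Actin and cortex genes were more often higher, with 19 of 34 members higher and 2 lower, a median of 0.79, and 11 higher and 1 lower among the 24 under both sequence limits. Ezr, ezrin, which links the apical membrane to actin, rose from 10.7 and 15.0 to 65.0 and 115 CPM (2.83, SE 0.36). Cdc42ep5, an effector of CDC42, rose from 13.4 and 9.98 to 50.4 and 89.5 CPM (2.59, SE 0.38). The nonmuscle myosin gene Myh10 went from 24.1 and 39.9 to 99.1 and 87.1 CPM (1.54, SE 0.30). Actn1 (0.13), Actn4 (-0.05) and Flna (0.43) did not pass.

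Signalling genes were taken by pathway. For Hippo, 2 of 19 members rose and 3 fell, with a median of -0.17 that lay between -0.21 and 0.17 over the alternatives. Yap1 fell from 275 and 257 to 102 and 86.0 CPM (-1.50, SE 0.21), as did its partner Tead4, while Wwtr1 (0.31), Lats1 (-0.17) and Lats2 (-0.75) did not pass. In the FGF and ERK list 9 of 18 members fell and 2 rose (median -0.73). Map2k2, an ERK kinase, fell from 548 and 579 to 252 and 265 CPM (-1.12, SE 0.17). Myc fell from 70.4 and 79.1 to 13 and 3.53 CPM (-3.28, SE 0.44). Dusp4, a phosphatase induced by ERK, rose from 3.35 and 4.99 to 24.4 and 49.5 CPM (3.16, SE 0.50), and Jun rose from 9.38 and 9.27 to 39.0 and 28.3 CPM (1.82, SE 0.41). Dusp6, another ERK phosphatase, went the other way, from 38.9 and 36.4 to 11.4 and 13 CPM (-1.61, SE 0.39), although not with DESeq2.

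In the BMP and TGF-beta list 2 of 8 members fell and 0 rose by edgeR (median -0.08). Id3, a target of BMP, fell from 1159 and 1351 to 375 and 185 CPM (-2.18, SE 0.24), and the ligand gene Tgfb1 from 61.7 and 31.4 to 6.50 and 2.36 CPM (-3.46, SE 0.57). Id2 was too low to test, at 4.02, 3.56, 3.25 and 28.3 CPM, so that 1 blastocyst plate alone was high. Of 11 Wnt genes tested 5 fell and 1, Ctnnb1, rose (2.36), which shares sequence over the limit. Tcf7l2, a DNA-binding partner of beta-catenin, fell from 117 and 125 to 22.8 and 24.7 CPM (-2.33, SE 0.28), and Axin1, a scaffold of the complex that degrades beta-catenin, from 59.0 and 63.4 to 26.0 and 18.8 CPM (-1.47, SE 0.33). Axin1 lost its call in wells with Y-linked counts and no Xist. The median of the list was -1.12, and it lay between -1.44 and -0.12 over the alternatives.

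Of 42 maternal oocyte transcripts listed, 12 had enough counts to be tested, of which 8 fell and 3 rose, with a median of -1.54. The summed level of the list was nevertheless higher in the blastocyst (1667 and 2104 CPM) than in the morula (1359 and 1597 CPM). Most of the sum came from Khdc3, of the subcortical maternal complex, with a mean of 886 CPM in the morula and 1616 CPM in the blastocyst (0.87), and 36.7% of its stretches are shared with other genes. Padi6, of the same complex, fell from 73.1 and 79.8 to 30.9 and 23.6 CPM (-1.51, SE 0.30). Gdf9, an oocyte growth factor, had 37 counts in the morula and 1 in the blastocyst (ratio 0.0534, 95% exact interval 0.00132 to 0.317). The call of Padi6 was lost in wells with Y-linked counts and no Xist, and that of Gdf9 with DESeq2. Ooep, also of the subcortical complex, went from 6.70 and 8.55 to 17.9 and 40.0 CPM (1.96), although not with DESeq2 or without blastocyst replicate 2. Among the transcripts known from embryos of 2 to 4 cells, 3 of 10 tested rose and 1 fell. Ddit4l, an inhibitor of mTOR signalling, rose from 99.2 and 117 to 541 and 366 CPM (2.06, SE 0.21).

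**Figure D3:**
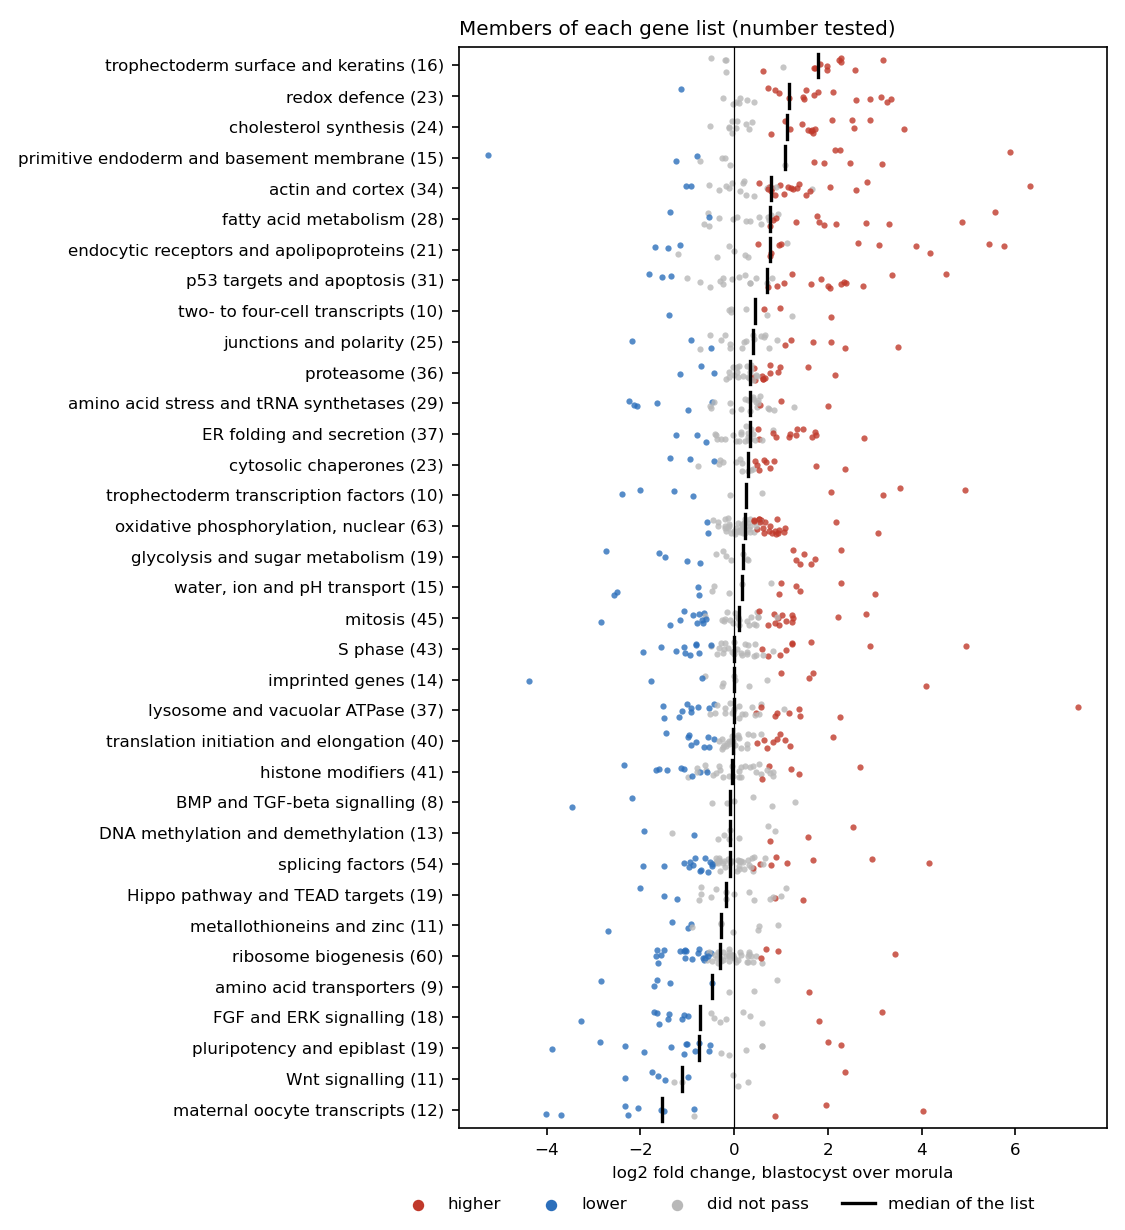
Log2 fold change from morula to blastocyst (horizontal axis) of every tested member of each list with at least 8 members tested (rows, number tested in brackets). Red points rose, blue points fell and grey points did not pass, and the black bar is the median of the list. Medians run from -1.54 for maternal oocyte transcripts to 1.78 for the surface genes of trophectoderm.

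Many genes of cholesterol synthesis were higher in the blastocyst, and 0 fell by edgeR. This pathway makes the sterol of new membranes and is switched on by SREBP2 when sterols are low. Of 24 members tested 14 rose and 10 did not pass, and 10 of 18 under both sequence limits, with a median of 1.14. Srebf2, which encodes SREBP2, rose from 4.69 and 4.28 to 14.6 and 23.6 CPM (2.10, SE 0.51), a call that was lost with DESeq2, without morula replicate 2 and without blastocyst replicate 2. Pmvk, a kinase of the mevalonate pathway, rose from 32.2 and 53.5 to 111 and 170 CPM (1.73, SE 0.29), and Sc5d, a late desaturase, from 2.68 and 5.70 to 34.1 and 16.5 CPM (2.52, SE 0.55). Sqle (-0.11), Fdft1 (-0.04), Lss (-0.51), Dhcr7 (0.05), Msmo1 (0.32) and Mvd (0.25) did not pass.

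In fatty acid metabolism 12 of 28 members rose and 2 fell, with a median of 0.76. Scd2, a desaturase, rose from 28.2 and 14.3 to 180 and 239 CPM (3.30, SE 0.30). Plin2, which coats lipid droplets, rose from 48.3 and 46.3 to 180 and 245 CPM (2.17, SE 0.24), and the lipid carrier gene Fabp5 from 108 and 115 to 276 and 497 CPM (1.81, SE 0.24). Cpt2, which takes fatty acids into beta-oxidation, had 2 counts in the morula and 34 in the blastocyst (ratio 33.6, 95% exact interval 8.61 to 289). Acsl4, an acyl-CoA synthetase, fell from 73.1 and 40.6 to 24.4 and 20.02 CPM (-1.37, SE 0.37), although not with DESeq2, without morula replicate 1 or in wells with Y-linked counts and no Xist. The synthesis enzymes Acaca (0.94) and Fasn (-0.56) did not pass.

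Genes of sugar metabolism moved both ways. Of 19 members 7 rose and 5 fell, and the median of 0.19 turned to -0.23 at the lowest over the alternatives. Under both sequence limits 4 of 12 rose and 5 fell, with a median of -0.21. Hk2, which phosphorylates glucose, rose from 46.9 and 37.1 to 132 and 132 CPM (1.65, SE 0.25), beside the transporter gene Slc2a3. Tkt, a transketolase of the pentose phosphate pathway, fell from 260 and 239 to 95.9 and 84.8 CPM (-1.47, SE 0.21). Pfkfb3, which makes the activator of phosphofructokinase, fell from 66.4 and 72.7 to 14.6 and 7.07 CPM (-2.73, SE 0.39), and Gfpt1, the first enzyme of the hexosamine pathway, from 86.5 and 78.4 to 39.0 and 17.7 CPM (-1.60, SE 0.34). The glycolytic genes Aldoa, Gapdh, Pgk1, Pgam1 and Ldha have pseudogene rows and were left out. Nuclear genes of oxidative phosphorylation had 22 of 63 members higher and 2 lower, but by small amounts: the median was 0.23, and under both sequence limits 11 of 38 were higher and 1 lower. Ndufa6 of complex I rose from 149 and 172 to 289 and 384 CPM (1.07, SE 0.20), and Atp5a1 of the ATP synthase fell from 1212 and 1240 to 798 and 862 CPM (-0.56, SE 0.15). Atp5a1 lost its call without morula replicate 2.

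Redox defence genes rose in 15 of 23 cases and fell in 1, with a median of 1.17, and in 12 of 18 cases under both sequence limits, where 1 fell. Nfe2l2 encodes NRF2, the transcription factor that binds antioxidant response elements (AREs) and induces thioredoxin and glutathione genes. It rose from 6.70 and 7.84 to 58.5 and 69.5 CPM (3.13, SE 0.38, adjusted p = 8.39e-06). Txnrd1, thioredoxin reductase, rose from 14.7 and 14.3 to 74.8 and 100 CPM (2.59, SE 0.32), and its substrate Txn1 from 162 and 176 to 631 and 816 CPM (2.10, SE 0.18). Gsto1, a glutathione transferase, rose from 369 and 513 to 1529 and 1533 CPM (1.80, SE 0.17). The exception was Gsr, glutathione reductase, which fell from 180 and 167 to 78.0 and 80.1 CPM (-1.13, SE 0.22). The mitochondrial members Txn2 (0.13), Prdx3 (0.04), Prdx5 (-0.03) and Sod2 (0.41) did not pass.

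The promoters of Txnrd1 and Nfe2l2 are shown because both genes rose and both windows hold the core of the ARE, searched as TGACNNNGC on both strands. Each sequence runs from 250 bases before to 50 bases after an annotated start (RefSeq, GRCm38.p6), 5′ to 3′ on the gene's strand, with the match in capitals. The window of Txnrd1 is chr10:82858956-82859255 on the plus strand, where the match reads on the opposite strand, and that of Nfe2l2 is chr2:75704614-75704913 on the minus strand. Txnrd1 has 3 windows in the table, and the one with the match was chosen.
Txnrd1: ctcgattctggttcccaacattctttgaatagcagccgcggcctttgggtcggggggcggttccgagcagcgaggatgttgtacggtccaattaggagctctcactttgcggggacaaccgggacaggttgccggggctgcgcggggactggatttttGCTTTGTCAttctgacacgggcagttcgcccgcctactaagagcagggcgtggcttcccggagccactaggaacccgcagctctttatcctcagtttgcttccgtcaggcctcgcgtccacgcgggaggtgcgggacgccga
Nfe2l2: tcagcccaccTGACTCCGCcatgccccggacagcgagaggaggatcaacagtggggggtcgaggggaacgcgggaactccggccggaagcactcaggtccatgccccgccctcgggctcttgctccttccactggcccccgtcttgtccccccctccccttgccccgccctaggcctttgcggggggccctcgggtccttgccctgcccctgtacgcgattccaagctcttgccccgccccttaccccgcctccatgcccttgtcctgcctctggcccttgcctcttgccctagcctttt
The core was found in 6 of 15 promoters of the redox genes that rose (40%, promoters of 12 genes), among them those of Gclm, Prdx1, Sod1 and Srxn1, and in 6 of 22 promoters over all redox genes tested (27.3%). It occurs in 14.7% of 7979 promoters of the same length from 6338 of the 7982 genes tested (79.4%). The motif was chosen after the values had been seen, and a match is a description of the letters, not of binding.

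Metallothioneins and zinc transporters had 4 of 11 members lower and 0 higher by edgeR, with a median of -0.29. Mt1, a zinc-binding protein, fell from 5758 and 5192 to 2451 and 3302 CPM (-0.93, SE 0.16). The zinc exporter gene Slc30a2 fell from 71.0 and 89.1 to 11.4 and 13 CPM (-2.69, SE 0.35), and the importer gene Slc39a4 from 257 and 318 to 127 and 105 CPM (-1.32, SE 0.21).

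Targets of p53 and genes of apoptosis rose in 14 of 31 cases and fell in 3, with a median of 0.69. All 14 that rose and all 3 that fell were among the 27 under both sequence limits. Pmaip1, which encodes the pro-apoptotic protein NOXA, rose from 16.1 and 13.5 to 150 and 158 CPM (3.36, SE 0.28, adjusted p = 1.61e-07). Mdm2, the ubiquitin ligase that restrains p53, rose from 36.2 and 28.5 to 179 and 139 CPM (2.28, SE 0.26), and Perp, a desmosomal p53 target, from 75.1 and 73.4 to 262 and 277 CPM (1.86, SE 0.21). Together with Btg2 these 4 targets were higher in both blastocyst plates by more than the spread between plates. Mcl1, an anti-apoptotic BCL2 relative, fell from 709 and 696 to 325 and 233 CPM (-1.34, SE 0.18), Ei24 from 259 and 304 to 117 and 78.9 CPM (-1.54, SE 0.23) and the kinase gene Plk3 from 38.9 and 44.2 to 14.6 and 9.42 CPM (-1.82, SE 0.40). Bax (-0.04), Bbc3 (-0.23), Sesn1 (0.81) and Bid (-0.74) did not pass.

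Cdkn1a, the cell cycle inhibitor that is the best-known p53 target, was named after its values had been seen. It rose from 253 and 222 to 549 and 357 CPM (0.92, SE 0.20, adjusted p = 0.00195). Its window, chr17:29090729-29091028 on the plus strand, was the only one among 36 promoters of the list with a match to the p53 response element. It is shown for that reason. Cdkn1a has 2 annotated windows, and the other holds no match. The search was for 2 half-sites of 10 bases with at most 13 bases between them. The stretch that matched, with the gap, is in capitals, and it describes the letters, not binding. The search took only exact half-sites. The 10 bases after the capitals miss the half-site pattern only in their first letter and were not marked.
Cdkn1a: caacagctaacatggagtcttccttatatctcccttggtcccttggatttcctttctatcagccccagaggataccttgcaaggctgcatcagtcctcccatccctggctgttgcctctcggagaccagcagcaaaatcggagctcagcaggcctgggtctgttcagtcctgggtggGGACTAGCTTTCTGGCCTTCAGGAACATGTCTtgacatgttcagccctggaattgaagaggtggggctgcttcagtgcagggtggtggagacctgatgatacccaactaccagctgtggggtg
A match was found in 5 of the 7979 promoters (0.0627%).

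Among genes for folding and secretion in the endoplasmic reticulum 13 of 37 members rose and 3 fell (median 0.34), beside 19.1% higher and 19.8% lower over all genes tested. Hspa5, the chaperone BiP, rose from 141 and 108 to 384 and 443 CPM (1.73, SE 0.20), and Ssr3, of the translocon, from 144 and 140 to 354 and 365 CPM (1.34, SE 0.18). Pdia6, a disulfide isomerase, rose from 75.7 and 69.1 to 172 and 283 CPM (1.66, SE 0.25). In the lysosome 9 of 37 members rose and 10 fell (median 0.00), not far from the shares over all genes. Ctsz, a cathepsin, fell from 794 and 780 to 322 and 403 CPM (-1.11, SE 0.17), while Npc1, the exporter of lysosomal cholesterol, rose from 10.1 and 9.98 to 53.6 and 43.6 CPM (2.25, SE 0.38). Tpp1, a lysosomal peptidase, had 0 counts in the morula and 14.6 and 21.2 CPM in the blastocyst, at least 17.8-fold higher against the floor over the morula plates. Of 36 proteasome genes 13 rose and 3 fell (median 0.35), with Psmd1 at 163 and 135 and then 280 and 305 CPM (0.97, SE 0.19) and the activator gene Psme3 at 149 and 152 and then 65.0 and 69.5 CPM (-1.16, SE 0.23). Cytosolic chaperones had 9 of 23 higher and 3 lower (median 0.29).

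Of 60 ribosome biogenesis factors 19 were lower and 4 higher, beside 19.8% lower and 19.1% higher over all genes tested. The share that passed in either direction was close to the 38.9% of all genes. The median was -0.30, and 14 were lower and 2 higher among the 47 under both sequence limits. Nop2, an rRNA methyltransferase, fell from 243 and 222 to 65.0 and 84.8 CPM (-1.62, SE 0.22), and Gar1, of the pseudouridylation complex, from 496 and 583 to 174 and 171 CPM (-1.65, SE 0.18). Bop1, needed for the large subunit, fell from 195 and 229 to 68.3 and 64.8 CPM (-1.67, SE 0.23), and Polr1c, a subunit of RNA polymerases I and III, from 573 and 586 to 286 and 263 CPM (-1.08, SE 0.17). Ncl (0.32), Nop56 (0.31) and Dkc1 (0.04) did not pass. Splicing factors had 14 of 54 lower and 8 higher (median -0.09), and 12 lower and 3 higher among the 36 under both limits. Hnrnpl fell from 656 and 762 to 202 and 167 CPM (-1.95, SE 0.18) and Srsf1 from 552 and 493 to 198 and 175 CPM (-1.49, SE 0.18). Translation factors had 9 of 40 higher and 9 lower. Eif4ebp1, the inhibitor of cap binding, rose from 650 and 756 to 1323 and 1650 CPM (1.08, SE 0.16), while Eif4h, a helper of the cap helicase, fell from 739 and 718 to 293 and 239 CPM (-1.46, SE 0.17).

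**Figure D4:**
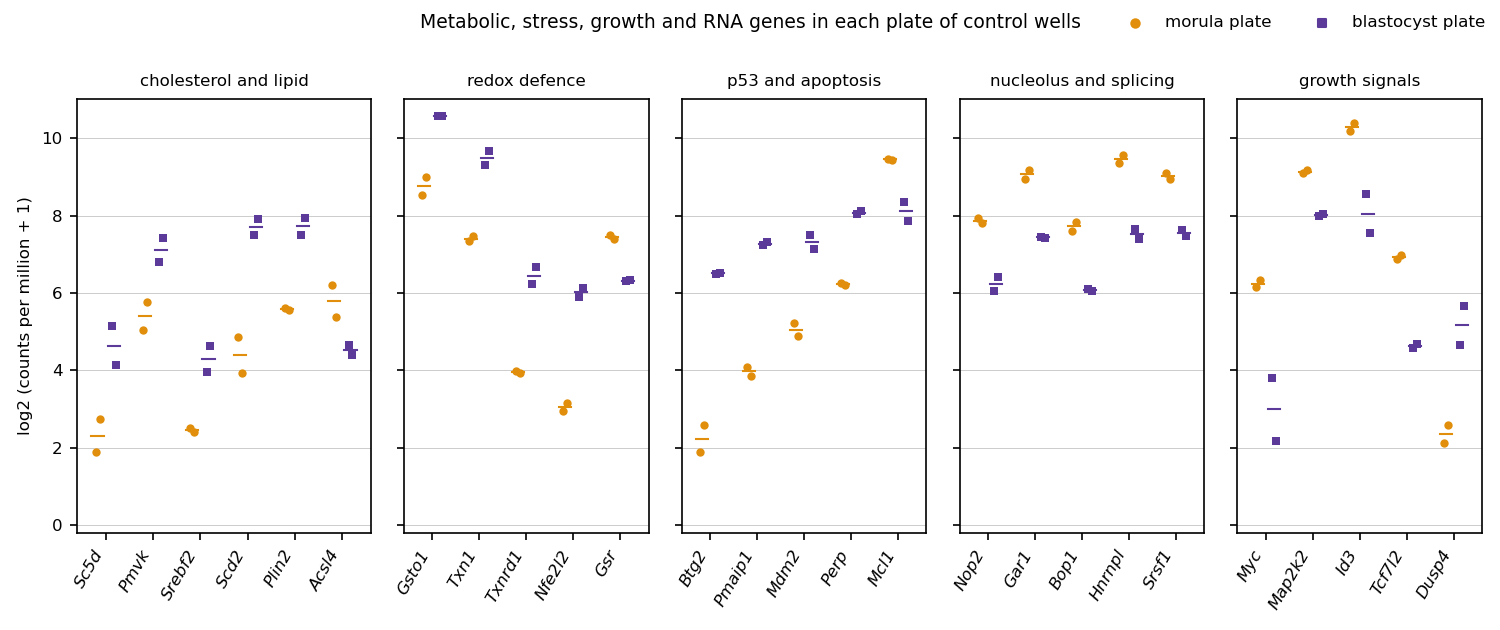
Level of genes of metabolism, stress response, RNA handling and growth signals in each plate of control wells, as log2 of CPM plus 1 (vertical axis). Orange circles are the 2 morula plates, purple squares the 2 blastocyst plates, and short lines the means of the plotted values. Lipid, redox and p53 genes lie higher in the blastocyst except Acsl4, Gsr and Mcl1, and the nucleolar and splicing genes lie lower.

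Of 43 S phase genes 9 rose and 10 fell (median 0.00), which is close to the shares over all genes tested (19.1% higher, 19.8% lower). Under both sequence limits 5 of 31 S phase genes rose and 9 fell (median -0.19), beside 16.8% higher and 20.7% lower over all such genes. Of 45 mitotic genes 13 rose and 11 fell (median 0.11). Cdt1, which licenses origins, fell from 493 and 505 to 163 and 177 CPM (-1.55, SE 0.18), and Ccne1, cyclin E1, from 589 and 628 to 341 and 253 CPM (-1.04, SE 0.18). Rrm1, of ribonucleotide reductase, rose from 76.4 and 64.1 to 187 and 248 CPM (1.64, SE 0.23), and Dut, a dUTPase, from 379 and 381 to 790 and 699 CPM (0.97, SE 0.16). In mitosis, the phosphatase gene Cdc25b fell from 32.8 and 27.8 to 6.50 and 2.36 CPM (-2.84, SE 0.54) and Racgap1, of the central spindle, from 405 and 368 to 167 and 180 CPM (-1.15, SE 0.18). Bub3, a spindle checkpoint gene, rose from 126 and 149 to 278 and 316 CPM (1.11, SE 0.20). Mki67 (0.32), Cdk1 (-0.22) and Aurka (-0.15) did not pass.

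Amino acid transporters could be tested for 9 of 27 members, of which 5 fell and 1 rose. Slc6a6, a taurine transporter, fell from 219 and 257 to 69.9 and 74.2 CPM (-1.72, SE 0.22), and Slc25a22, a mitochondrial glutamate carrier, from 111 and 126 to 21.1 and 13 CPM (-2.84, SE 0.32). In the amino acid stress list 6 of 29 fell and 3 rose (median 0.34). Ddit4, an inhibitor of mTOR complex 1, fell from 456 and 403 to 138 and 61.2 CPM (-2.15, SE 0.27), in the opposite direction to its relative Ddit4l. Sars, a tRNA synthetase, rose from 129 and 148 to 242 and 311 CPM (1.00, SE 0.20). Atf4 (-0.10) did not pass.

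Among genes for DNA methylation and its removal 3 of 13 rose and 2 fell. Tet2, a methylcytosine oxidase, rose from 24.8 and 29.2 to 122 and 191 CPM (2.54, SE 0.28), while Tet1 (-0.10) and Tet3 (-0.23) did not pass. Histone modifiers had 5 of 41 higher and 9 lower. Prmt1, the main arginine methyltransferase, fell from 477 and 505 to 115 and 78.9 CPM (-2.36, SE 0.21), and the acetyltransferase gene Kat2a from 85.1 and 82.0 to 29.3 and 23.6 CPM (-1.68, SE 0.30), the latter not in wells with Y-linked counts and no Xist. Of 14 imprinted genes tested 4 rose and 3 fell. Grb10, an inhibitor of growth factor receptors, fell from 54.3 and 64.1 to 1.63 and 3.53 CPM (-4.39, SE 0.51), and Phlda2, a restrainer of placental growth, from 99.2 and 44.9 to 14.6 and 25.9 CPM (-1.78, SE 0.41), although not without morula replicate 1.

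Wells were grouped by whether Xist or Y-linked counts were found in them, which depends on depth and need not give the sex. The sizes of these groups differed between plates. Wells with Xist, the RNA that coats the inactive X chromosome, and without Y-linked counts numbered 25 and 27 on the morula plates, and 15 and 6 on those of the blastocyst. Wells with Y-linked counts and without Xist numbered 12, 13, 14 and 16, wells with both 7, 4, 8 and 19, and wells with neither 4, 4, 6 and 2. Xist had 89.8 and 113 CPM in the morula and 1052 and 277 CPM in the blastocyst, and did not pass (2.69, adjusted p = 0.0501). The Y-linked genes rose, Eif2s3y from 24.8 and 29.9 to 48.8 and 82.4 CPM (1.29, SE 0.33) and Ddx3y from 2.68 and 4.99 to 19.5 and 53 CPM (3.27, SE 0.55). Eif2s3y lost its call in 4 alternatives, among them the wells with Y-linked counts and no Xist. Of 207 genes tested on the X chromosome 27 were higher and 47 lower (median -0.15). In wells with Y-linked counts and no Xist, 5099 genes could be tested, of which 783 were higher and 855 lower.

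Markers of cumulus, granulosa, oviduct and uterus cells were too low to test, while 2 genes of the list for blood, fibroblasts and sperm could be tested. The 12 cumulus and granulosa markers summed to 4.69 and 6.41 CPM in the morula and to 13 and 13 CPM in the blastocyst, with 6 at 0 in all plates and 0 tested. The 9 oviduct and uterus markers kept by the rule summed to 6.03, 4.99, 1.63 and 4.71 CPM, with 3 at 0 in all plates and 0 tested. The 15 markers of blood, fibroblasts and sperm summed to 61.7 and 59.2 CPM in the morula and to 40.6 and 56.5 CPM in the blastocyst, with 6 at 0 in all plates. The 2 that could be tested were Pecam1, an adhesion molecule, which fell from 34.2 and 33.5 to 17.9 and 11.8 CPM (-1.22, SE 0.40, adjusted p = 0.0221), although not with DESeq2, without either morula plate or without blastocyst replicate 2, and the macrophage gene Cd68 (0.97), which did not pass.

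Shares of wells with a count showed whether a level came from many wells or few. Wells were thinned to 10000 counts each, which kept 96 morula and 85 blastocyst wells and left out 1 blastocyst well. Thinning was over all rows. Kept rows held 70.3% and 70.8% of the counts on the morula plates and 57.1% and 57.5% on the blastocyst plates. Equal depth over all rows therefore left fewer counts on kept rows in the blastocyst. Lrp2 was then found in 2.08% of morula and 45.9% of blastocyst wells (6.25% and 65.1% without thinning), and in 45.2% and 46.5% of wells on the separate blastocyst plates. Elf3 was found in 11.5% and 61.2% (37.5% and 79.1%), and Gata3 in 6.25% and 31.8% (22.9% and 48.8%). Klf2 was found in every morula well and in 49.4% of blastocyst wells (73.3% without thinning), and Dct in 54.2% of morula wells (88.5%) and in 0 of 85 blastocyst wells. For counting error only, 0 of 85 allows a share of up to 3.53% of wells with a count at this depth, and sets no limit on the wells that express the gene. Tead4 was found in 95.8% and 52.9% (100% and 81.4%). Sox17, a gene of committed primitive endoderm, had a count in 0 of the thinned wells at both stages, which in the same sense allows up to 3.12% of morula and 3.53% of blastocyst wells with a count at this depth.

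The same plates held wells from embryos injected with the NKX1-2 morpholino, which gave a comparison in other wells but not on other plates. Of 3013 genes that passed in control wells and could be fitted there, 2962 had the same direction and 2413 also passed. Of all 7727 genes fitted in both, 6546 had the same direction. Among the 225 named genes that passed in control wells, Slc16a1, a monocarboxylate transporter, and Eif2s3y had the opposite direction. Apoa1, with a log2 fold change of 5.44 in control wells, had 1.21 in NKX1-2 wells (adjusted p = 0.00612), whereas Lrp2 had 5.75 and 6.01. The difference between these values was not tested.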

How the data were processed

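Per the labels' protocols, polyA RNA was captured from embryo lysates and made into Illumina TruSeq libraries, although 10x Genomics also appears in their descriptions. Per the submitters' processing notes, which give no version or role, the tool list holds TopHat2 and the build list GRCm38 and mm10. The deposited values are whole-number counts per gene and well, not normalized by the authors. How genes were counted (tool, strand, reads or molecules) is not given in the sources used here. A deposited table gives the morpholino of each barcode, and the same 96 barcodes are used on every plate by design. No doublets were called, since doublet wells cannot be told apart from wells with several cells.

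Control wells with at least 2000 detected genes were summed per plate. Rows from U2af1 to V1rg10, Rpl, Rps and mt- genes, Gm followed by digits, genes with a pseudogene row (-ps) and the pseudogene rows themselves were left out. The kept rows held 57.1% to 70.8% of the counts of a plate. Low genes were filtered by filterByExpr, sums were scaled by TMM, and stages were compared with edgeR 4.0.16 (robust quasi-likelihood fit of the 4 sums, no block, R 4.3.3) with Benjamini-Hochberg adjustment over all 7982 genes tested. Log2 fold changes are of blastocyst over morula, and SE is their standard error. The script was checked on simulated counts. Symbols matched the GENCODE M21 annotation for 54586 of 55453 rows (98.4%), which gave positions, shared 31-base stretches (either strand) and exon overlap. A fold against 0 counts used a floor of 3 counts over the stage, and a ratio with 1 to 3 counts has an exact 95% interval.

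The wells, the gene lists and the rules were chosen with earlier results of these data known. Named genes were the 12 with the largest change in each direction among those that passed (separate plates, a mean of at least 30 CPM in a stage, under 10% shared stretches, counts in at least 20% of wells of the higher stage), up to 4 members per list and direction with the smallest p, and 24 lineage genes named in any case. Values of some of these genes are not reported here, although they enter the counts. Other list members are named with their values where they did not pass, or to complete a count. Alternatives were RLE size factors, DESeq2 1.42.0, limma voom (limma 3.58.1), other filters on genes and wells, thinned sums, a replicate block and each plate left out. Promoters are those of RefSeq (GRCm38.p6), matched by symbol. A comparison of TEAD, AP-2, GATA, POU and KLF motifs between genes that rose and fell under both sequence limits was not used as a result. Promoters were matched for only 804 of 1022 genes that rose, short of 4 in 5 genes. The background of all genes tested, with 79.4% matched, was also short of this. Among promoters of genes that rose and fell, the shares with a match were 12.5% and 12% for TEAD and 24% and 26.2% for AP-2. They were 6.52% and 6.4% for GATA, 2.95% and 2.93% for POU, and 9.16% and 8.1% for KLF. Python 3.11.15 (pandas 2.3.3, numpy 2.4.6) and matplotlib 3.10.9 served for tables and figures.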

Additional observations from a re-analysis of the deposited data

How the results depend on the processing

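The counts of 1522 genes higher and 1583 lower moved by over 1.5 times with DESeq2 (755 and 939), in wells with Y-linked counts and no Xist (783 and 855), and without either morula plate. With each plate left out in turn they ran from 800 to 1610 higher and from 987 to 1783 lower. A stage left with 1 plate was assumed to vary like the other. The cause was not tested. The labels do not tie same-numbered plates to each other, and 2 plates per stage cannot show whether they were paired. Deviations of same-numbered plates correlated at 0.0899, and with the replicate block 1584 genes were higher and 1669 lower. With the rows left out by the rule put back, 1921 were higher and 2072 lower. Of 225 named genes that passed, 138 kept their call in every alternative that tested them, 52 lost it in 1 to 3 and 35 in 4 or more of 20, and 0 reversed. Of 37 list medians, 22 kept their sign in every alternative. Among the 15 others, 7 were over 0.1 in size, those of trophectoderm transcription factors, primitive endoderm, Hippo, transport, sugar metabolism, transcripts of 2 to 4 cells (-0.15 to 1.15) and amino acid transporters (-1.37 to 0.23). With n = 2 plates per stage, and 619615 to 1517448 counts on kept rows, small differences in genes with few counts may have been missed.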
